A study of Homo sapiens with 20 samples.

Results

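RNA carried by extracellular vesicles was compared with the RNA of the cells that released them in 5 human colorectal adenocarcinoma lines: COLO-201, HT-29, HCT 116 and SW480, labelled as colon, and LS513, labelled as cecum. Each line gave 1 cell library and 1 vesicle library, so 10 of the 20 libraries of a 10-line series enter, and each vesicle library was compared with the cell library of the same line. All lines were untreated and labelled wild type, and culture was in DMEM or RPMI-1640 supplemented with antibiotics and fetal bovine serum. The series asks whether vesicle transcriptomes reflect those of the cells of origin. These 5 lines were chosen from the data, because their vesicle libraries had the lowest background, estimated from reads in genes that are silent in cells. The genes described are the 9628 of 17113 protein-coding genes (56.3%) whose level averaged 10 CPM or more over the 5 cell libraries, called the profile below. CPM is a gene's count scaled to a common library total.

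The background was estimated from 2023 genes that no cell library of the series covered by more than 10 counts. Their reads per kilobase were extended to the exonic length of all genes. The estimate is the resulting sum as a percent of all counts. It was 2.06% in SW480 vesicles, 2.33% in COLO-201, 2.54% in HT-29, 3.40% in HCT 116 and 7.22% in LS513, and 19.2% in LS1034, the nearest line left out. The profile was chosen on cell levels alone. ZSCAN16 at 10.0008 CPM and MFSD2A at 10.0052 CPM were just inside, and LSM11 at 9.99 CPM and TUSC1 at 9.99 CPM were just outside. Choosing genes for a high cell level enters every median and every balance of calls in the profile, so those are descriptions. The profile held 98.3 to 98.9% of the counts of the cell libraries and 95.9 to 97.8% of those of the vesicle libraries.

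Total counts were 24.8 to 34.7 M in the cell libraries and 4.62 to 24.4 M in the vesicle libraries, so vesicle values were the less precise ones, most of all in HCT 116. A gene with 0 counts could still be present at up to 3 counts, which was 0.0865 to 0.121 CPM in cells and 0.123 to 0.650 CPM in vesicles. Such limits cover only counting error, because reads that carry no molecular identifier may repeat a molecule. For cells the library kit was stranded and removed ribosomal RNA, and for vesicles an exosome RNA isolation kit, low-input SMART-Seq amplification and Nextera XT were used. Compartment and library kit coincide in each line, so they cannot be told apart in any comparison of vesicles with cells. The labels name no separate cultures of a line, so the 5 lines are the replicates, and fewer vesicles cannot be told apart from less RNA per vesicle.

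The 20 colorectal epithelium markers were all in the profile, with 20 of them at 1 CPM or more in HT-29 and LS513 cells, 14 in COLO-201, 13 in SW480 and 9 in HCT 116. Markers of leukocytes, erythroid cells and platelets, fibroblasts and endothelium, and hepatocytes were mostly low in cells, and CD3D, HBD, HBG1, THY1, APOA2 and APOC3 had 0 counts in all 5 cell libraries. Their summed levels in vesicles were 17.8 to 808 CPM, 9.34 to 58.5 CPM, 35.0 to 141 CPM and 19.4 to 216 CPM. In cells the same sums were 0.606 to 2736 CPM, 0.487 to 4.80 CPM, 1.87 to 25.2 CPM and 3.27 to 680 CPM. The high leukocyte values were those of LYZ, lysozyme, which COLO-201, HT-29 and LS513 cells themselves transcribed at 704, 2728 and 856 CPM on the same scale of library totals. The part of these markers in the results was not tested.

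Extracellular vesicles are membrane-bound particles that bud from the plasma membrane or are set free when multivesicular bodies fuse with it, and they enclose cytoplasm. mRNAs of secreted and membrane proteins are translated on the endoplasmic reticulum, where a signal peptide or a transmembrane segment, both of them hydrophobic stretches, brings the ribosome to the translocon. mRNAs of cytosolic, nuclear and most mitochondrial proteins are translated in the cytosol, and mitochondrial DNA is transcribed and its mRNAs translated inside the organelle. Some mRNAs, among them those of RAB13, NET1, TRAK2 and KIF1C, are known to be transported to cell protrusions through GA-rich sequences in their 3′ UTRs.

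Runs of G and A in 3′ UTRs are shown here for these 4 mRNAs and that of CDC42BPG, which were among those with large rises in vesicles. Whether the printed runs are the sequences known to act in transport was not examined. For each gene the 3′ UTR of 1 representative GENCODE 29 transcript was searched, on the transcript strand only, for the longest run of G and A alone in which each base made up at least 25%. Capitals mark the run within the 30 bases printed, and the run of RAB13 is longer than the window. Coordinates are GRCh38.
RAB13 (chr1:153981919-153981948, minus strand): AGAAAGGAAAAAAAGGAAGAGAGAGGAAGG
NET1 (chr10:5457957-5457986, plus strand): ttAAAAGAAAAAGAGAGGAAAAGAGAGtag
TRAK2 (chr2:201380304-201380333, minus strand): gtgttcAGAGGGAGAAAAGAAAGGtttaat
KIF1C (chr17:5024308-5024337, plus strand): ggaggctGAGGAAAGGAAGAGGGcacggag
CDC42BPG (chr11:64823860-64823889, minus strand): cgtgcAGAGGAAGAGGGGAGAGGGAcgaag
The runs measured 45 bases in RAB13, 25 in NET1, 20 in CDC42BPG, 18 in TRAK2 and 16 in KIF1C. Runs at least as long occurred in 0.148%, 1.6%, 5.30%, 9.34% and 17% of the 9490 profile genes tested that had an annotated transcript. A run is a description of the letters and not a binding site.

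Of the 9617 profile genes tested, 864 were higher in vesicles and 2797 lower at an adjusted p under 0.05 (edgeR quasi-likelihood test with cell line as a block, Benjamini-Hochberg over all 14793 genes tested), which is 8.98% and 29.1%. Over all genes tested, 2881 were higher and 2816 lower. The excess of falls is thus that of the profile, which was chosen for a high cell level. The profile shares of 8.98% and 29.1% are the background for every count of members below. The genes that fell included mRNAs of endoplasmic reticulum and surface proteins, and those that rose included mRNAs of ribosomal proteins and of RAB13, NET1, TRAK2 and KIF1C. At least 2-fold changes were called for 472 genes that rose and 2373 that fell, and at least 4-fold changes for 33 and 799. The direction was the same in 5 of 5 lines for 833 of the genes called higher and 2631 of those called lower. The cell and vesicle values did not overlap for 260 genes higher and 1329 lower in vesicles.

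The balance of rises and falls depended on how the libraries were scaled. With TMM scaling 23.6% of the calls in the profile were rises and the profile median was -0.43 on the log2 scale, against 0.10 over all genes tested. With DESeq2's size factors 1379 genes rose and 2260 fell (37.9% rises, profile median -0.21). With library size alone the counts were 1119 and 2587 (30.2% rises, median -0.33), and with upper-quartile scaling 2281 and 1469 (60.8% rises, median 0.14). Medians of most gene lists are therefore also given relative to the profile median, since no scaling moved that difference by more than 0.1 in any list but that of colorectal epithelium markers, which went from 0.06 to -0.06 with upper-quartile scaling. Without SW480, 500 genes rose in place of 864.

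RAB13 encodes a small GTPase of membrane traffic and tight junctions, and its mRNA had the largest rise among the profile genes called with the same direction in 5 of 5 lines. Its cell level was 29.4 CPM in LS513, 32.0 in SW480, 41.2 in HT-29, 47.2 in HCT 116 and 45.9 in COLO-201. Its vesicle level was 1164 CPM in LS513, 1285 in HT-29, 3033 in COLO-201, 4822 in SW480 and 5939 in HCT 116 (TMM-scaled, as are all levels below). Every vesicle library was far above every cell library, and the lines differed more in vesicles than in cells. The means were 39.1 ± 8.05 and 3248 ± 2119 CPM (SD, n = 5), a log2 change of 6.11 (SE 0.43, edgeR adjusted p = 0.00068).

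The mRNA of TRAK2, which encodes an adaptor linking mitochondria to kinesin, lay between 42.9 and 61.1 CPM in cells. In vesicles it was 236 CPM in LS513, 926 in HT-29, 1070 in COLO-201, 1930 in HCT 116 and 3513 in SW480, a log2 change of 4.42 (SE 0.57, edgeR adjusted p = 0.00165). KIF1C, a kinesin motor that carries cargo along microtubules, lay between 75.2 and 148 CPM in cells. Again LS513 vesicles were lowest and those of HCT 116 and SW480 highest. KIF1C in vesicles was 617 CPM in LS513, 1150 in COLO-201, 1251 in HT-29, 2607 in SW480 and 3497 in HCT 116, a log2 change of 3.92 (SE 0.51, edgeR adjusted p = 0.00169). NET1, an exchange factor for the GTPase RhoA, had the highest mean vesicle level of these mRNAs in CPM, which is not corrected for length, although RAB13 was higher in LS513 and HCT 116. NET1 values overlapped between compartments only because LS513 vesicles, at 854 CPM, lay below COLO-201 cells, at 869 CPM. The other vesicle libraries held 2279 CPM in HT-29, 4291 in HCT 116, 10252 in SW480 and 11772 in COLO-201, and within each line vesicles were above cells (log2 fold change 3.75, SE 0.56, edgeR adjusted p = 0.00265).

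**Figure D1:**
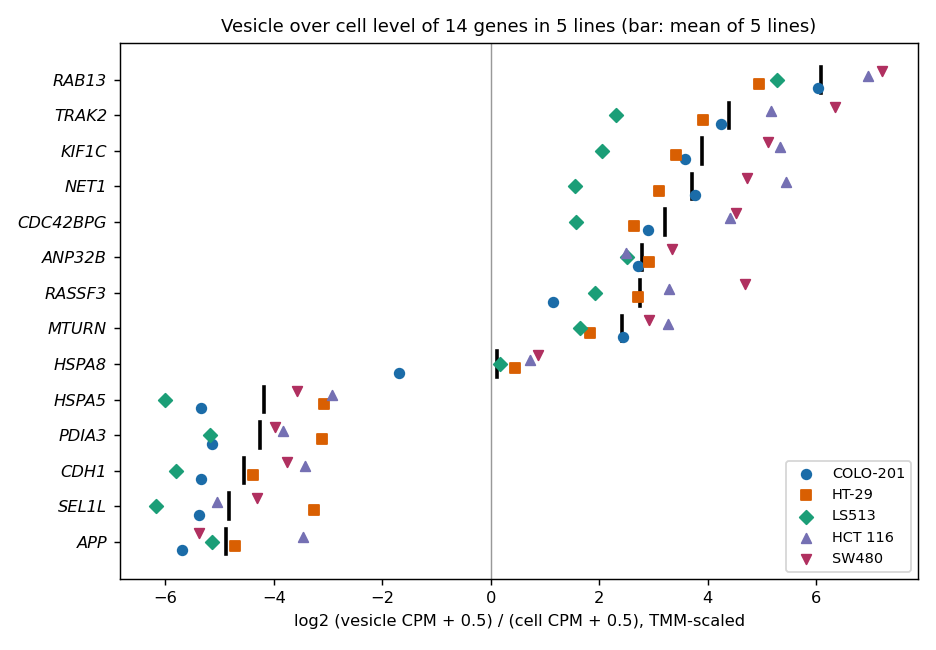
Log2 ratio of vesicle to cell level (TMM-scaled CPM plus 0.5) in each of 5 lines for 14 genes. Points are lines and black bars their mean; RAB13 lies between 4.95 and 7.22, and APP, at the bottom, is below 0 in each line.

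RAB13, NET1, TRAK2 and KIF1C together made up 0.0556% ± 0.0275 of the counts of the cell libraries and 1.25% ± 0.737 of those of the vesicle libraries (SD, n = 5). The share rose in 5 of 5 lines, from 0.0442 to 0.337% in LS513 and from 0.0565 to 2.07% in SW480. The exact sign-flip permutation p was 0.0625 (two-sided), the smallest that 5 pairs allow, so the share cannot pass 0.05. Of the list of 11 RNAs known at cell protrusions, 5 rose, with PALLD, an actin-bundling protein, as the other one, and P4HA2, a collagen prolyl hydroxylase of the endoplasmic reticulum, fell. The call for PALLD (log2 fold change 0.96, edgeR adjusted p = 0.0461) was lost without COLO-201, HT-29, HCT 116 or SW480, at adjusted p of 0.13, 0.134, 0.0504 and 0.138. ARHGEF2, CYB5R3, DYNLL2, KANK2 and PKP4 did not pass the test, with log2 fold changes between -0.80 and 0.78. The list's median was 0.78, which is 1.21 above that of the profile. Some of its members were known to rise in these data when the list was chosen, so its count is no independent evidence.

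A long GA run was not shared by the genes that rose in general. A run of at least 18 bases occurred in 9.34% of profile genes, in 5.55% of the genes called higher and in 11.3% of those called lower. These shares are not corrected for 3′ UTR length. In the fifth of profile genes with the shortest 3′ UTRs 20.9% rose, and in that with the longest 3.21%. The condition that each base makes up at least 25% was added after a run made mostly of A was seen in KIF1C. When every run of G and A counts, the longest in KIF1C is 21 bases, and the shares are 17.3%, 8.26% and 20.1%.

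CDC42BPG, a protein kinase that acts downstream of CDC42, rose from 10.9 ± 3.12 to 116 ± 61.0 CPM (log2 fold change 3.27, SE 0.50, edgeR adjusted p = 0.00272). ANP32B, a nuclear histone chaperone, lay between 141 and 249 CPM in cells and between 931 and 1717 CPM in vesicles. Its log2 ratios ran from 2.49 in HCT 116 to 3.33 in SW480. RASSF3, a RAS-association domain protein, had a wider range, from 1.15 in COLO-201 to 4.68 in SW480. Among genes of at least 10 CPM in every cell library, a set added after the values were seen, RAB13, TRAK2, KIF1C, NET1, ANP32B and RASSF3 were followed by MTURN, ESF1, NDUFAF8 and UACA. MTURN, which encodes the neural differentiation factor maturin, rose from 15.7 ± 1.91 to 93.9 ± 42.7 CPM, and NDUFAF8, an assembly factor of respiratory complex I, from 51.1 ± 9.55 to 214 ± 67.8 CPM. FTL, the ferritin light chain, which stores iron, was also among the 15 largest rises of that set, from 2014 ± 1237 to 7121 ± 2769 CPM with overlapping ranges.

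Others of the 15 largest rises rested on lines in which the gene was almost silent in cells. GNG11, a G protein gamma subunit, was at 0 counts in COLO-201, HT-29 and LS513 cells and at 80.4 CPM in SW480 cells. Its vesicle level in those lines was 0.934, 1.53, 2.25 and 159 CPM. PDLIM4, XAF1, HDGFL3, LRP3, C1orf115 and PDE4C likewise had under 1 CPM in 2 or more of the 5 cell libraries. Their folds thus mix a change in the expressing line with a low level in the vesicles of the others. For PDLIM4, XAF1, HDGFL3 and LRP3 the call was lost when 1 line was left out, for each of them without COLO-201 (adjusted p of 0.0852, 0.0535, 0.0569 and 0.0811).

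The largest falls were those of membrane, secretory and lysosomal proteins. APP, the amyloid precursor protein, was at 460 CPM in COLO-201 cells, 420 in LS513, 365 in SW480, 261 in HT-29 and 233 in HCT 116. In vesicles it was at 8.31 CPM in SW480, 8.41 in COLO-201, 9.39 in HT-29, 11.4 in LS513 and 20.8 in HCT 116. The groups lay more than 10-fold apart, with a log2 change of -4.96 (SE 0.39, edgeR adjusted p = 0.00068). SEL1L, the scaffold of the ubiquitin ligase that removes misfolded proteins from the endoplasmic reticulum, fell from 282 ± 148 to 8.65 ± 2.89 CPM. CDH1, the adhesion molecule E-cadherin, fell from 458 ± 374 to 14.4 ± 9.79 CPM although the lines differed widely in cells, from 43.3 CPM in SW480 to 933 CPM in LS513. PDIA3, a protein disulfide isomerase, fell from 1139 ± 421 to 72.1 ± 64.0 CPM. Others among the 15 largest falls were ERMP1, SLC39A7, TMEM30A, GLG1, ADGRG6, CPD, OCLN, ENPP4, ABHD2 and LMBRD1, and the cell and vesicle values did not overlap for any of the 15. They include a zinc transporter (SLC39A7), a Golgi glycoprotein (GLG1), a tight junction protein (OCLN) and a lysosomal membrane protein (LMBRD1).

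The secretory lists moved together. Of 28 genes for endoplasmic reticulum chaperones and folding, 27 fell and 0 rose, with a median log2 fold change of -2.52. Of 25 N-glycosylation genes, 20 fell and 1 rose (median -2.42). Both medians lay about 2 below that of the profile, by -2.09 and -1.99. Among 42 surface receptors and adhesion molecules, 41 fell (median -2.86), and among 37 plasma membrane transporters 33 fell (median -2.48), with 0 rises in either list. Of 33 genes for the COPI and COPII coats and cargo receptors, which carry proteins between endoplasmic reticulum and Golgi, 21 fell and 0 rose (median -1.48, or -1.05 relative to the profile). With upper-quartile scaling, 6 of the coat genes rose and 18 fell. These 5 lists and that of translocation into the endoplasmic reticulum, taken as 1 set, held 5.52% ± 0.966 of cell counts and 1.63% ± 0.190 of vesicle counts, with a fall in 5 of 5 lines (two-sided p = 0.0625 by exact sign-flip permutation).

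Examples from these lists were lower in vesicles in every line. CANX, the lectin chaperone calnexin, lay between 1275 and 3815 CPM in cells and between 142 and 474 CPM in vesicles (log2 fold change -3.16, SE 0.27, edgeR adjusted p = 0.000772). EPCAM, a surface adhesion molecule of epithelium, fell from 2734 ± 2119 to 298 ± 64.8 CPM. SLC7A5, a transporter of large neutral amino acids, fell from 995 ± 540 to 60.7 ± 53.3 CPM. ITGAV, an integrin subunit, and TMED10, a cargo receptor, had log2 fold changes of -3.83 (SE 0.29) and -3.38 (SE 0.35). None of these 5 genes had overlapping groups. CD9, CD63 and CD81, tetraspanins used as protein markers of vesicles, had lower mRNA levels in vesicles, with log2 fold changes of -2.47, -1.56 and -2.16 (edgeR adjusted p = 0.00386, 0.0053 and 0.000912). Of 33 genes for vesicle and endosome proteins, 14 fell, CD9, CD63 and CD81 among them, and 0 rose, and the median was -0.22 relative to the profile.

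Chaperones of 1 family whose proteins work in different places had different folds. HSPA5, the HSP70 of the endoplasmic reticulum, was at 657 to 3526 CPM in cells and at 30.6 to 173 CPM in vesicles, a log2 change of -4.16 (SE 0.54, edgeR adjusted p = 0.00162). HSPA8, the HSP70 of the cytosol, was at 1150 to 1598 CPM in cells and at 497 to 2280 CPM in vesicles, with a log2 change of 0.15 (SE 0.36) that did not pass the test. HSPA9, the HSP70 of the mitochondrial matrix, had -0.73 (SE 0.31), also not past it. HSP90B1 of the endoplasmic reticulum had -3.61 (SE 0.49, edgeR adjusted p = 0.00196), while the cytosolic HSP90AB1 and the mitochondrial TRAP1 had -0.44 (SE 0.23) and -0.66 (SE 0.25) without a call. These 6 genes were chosen after their values were seen, and the differences between their folds were not tested.

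Genes of the translocation machinery went in both directions. Of 23 genes, 11 fell and 4 rose (median -0.77, or -0.34 relative to the profile). SEC61A1, the channel subunit of the translocon, fell from 466 ± 155 to 41.0 ± 20.2 CPM (log2 fold change -3.59, SE 0.42), whereas the small subunits SEC61B and SEC61G had 0.87 (SE 0.21) and 1.19 (SE 0.26). SRP9 and SRP14, small proteins of the signal recognition particle, which is cytosolic, rose by 0.58 and 0.86. OST4, a very small subunit of the oligosaccharyltransferase, was the gene of the glycosylation list that rose, from 122 ± 32.5 to 309 ± 143 CPM (log2 fold change 1.26, SE 0.27). The coding lengths of SEC61B, SEC61G and OST4 are 288, 204 and 111 bases, against 1428 bases for SEC61A1. Without SW480, 1 of the 4 rises of the translocation list was called, and without COLO-201, HT-29 or LS513 2 were.

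**Figure D2:**
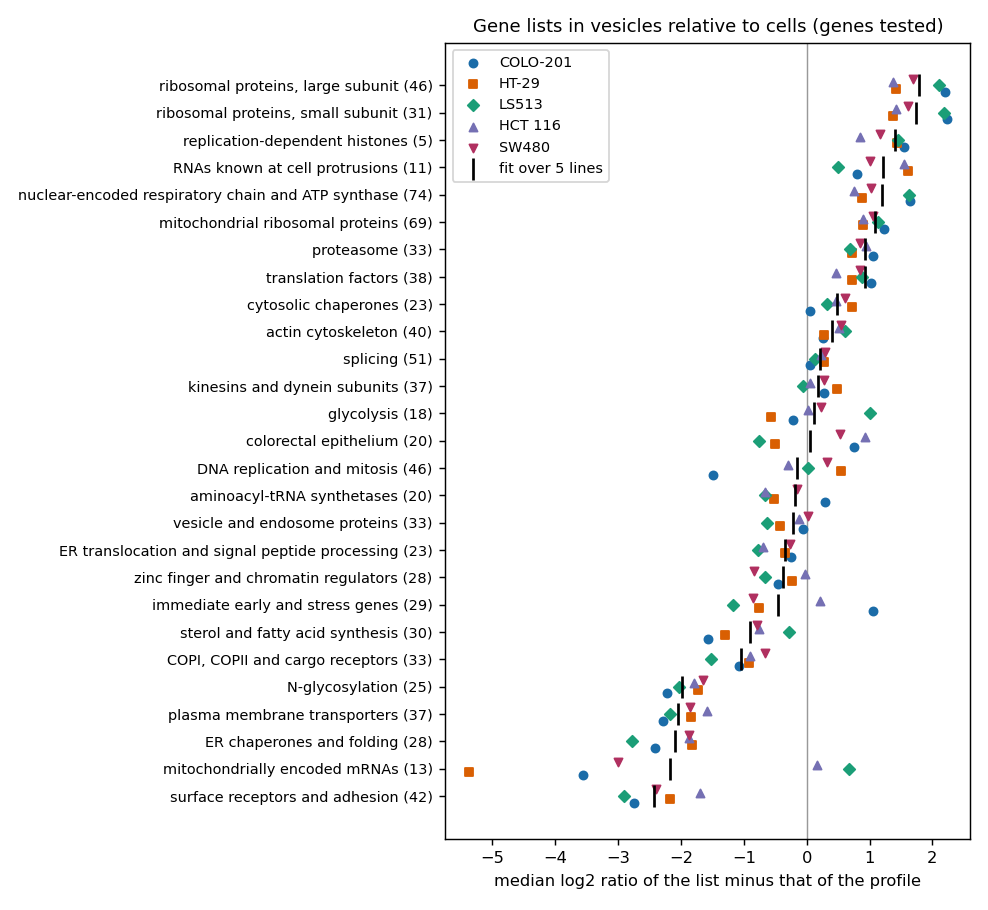
Median log2 ratio of vesicles to cells of 27 gene lists minus the median over the profile, in each line (points) and in the fit over 5 lines (black marks); numbers in brackets are genes tested. Ribosomal protein lists lie to the right in all lines, surface and endoplasmic reticulum lists to the left, and mitochondrially encoded mRNAs spread from -5.37 in HT-29 to positive values in LS513 and HCT 116.

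Coding length and encoded hydrophobic stretches were then set beside the fold changes over 9490 tested profile genes with an annotated transcript. A stretch is a window of 19 residues with a mean Kyte-Doolittle hydropathy of at least 1.6 in the translated coding sequence, a rough sign of a transmembrane segment or signal peptide. Genes without a stretch had a median log2 fold change of -0.23, those with 1 stretch -0.70, those with 2 to 3 stretches -1.22 and those with 4 or more -1.62. Among the 623 genes with 4 or more stretches, 63.6% fell and 0.482% rose, against 20.9% and 11.1% of the 6480 genes with none. Those that rose included TMEM54, a little-studied membrane protein, and the ion channel TRPM2.

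Short coding sequences were higher in vesicles. Of the 825 genes with under 500 coding bases, 47.6% rose and 4.73% fell (median 0.77). Of the 1333 genes with over 3000, 1.50% rose and 51.1% fell (median -1.01). KIF1C, with a coding length of 3309 bases, CDC42BPG with 4653 and UACA with 4248 were among the 20 long genes that rose. Spearman's rho between coding length and log2 fold change across genes was -0.46, and within single lines it ran from -0.47 in COLO-201 to -0.27 in HCT 116. Genes are not independent replicates, so these are descriptions. The same coefficient with 3′ UTR length was -0.30, with the number of stretches -0.34 and with GC content of the transcript 0.17. Length bias differs between library kits, and its part was not tested.

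**Figure D3:**
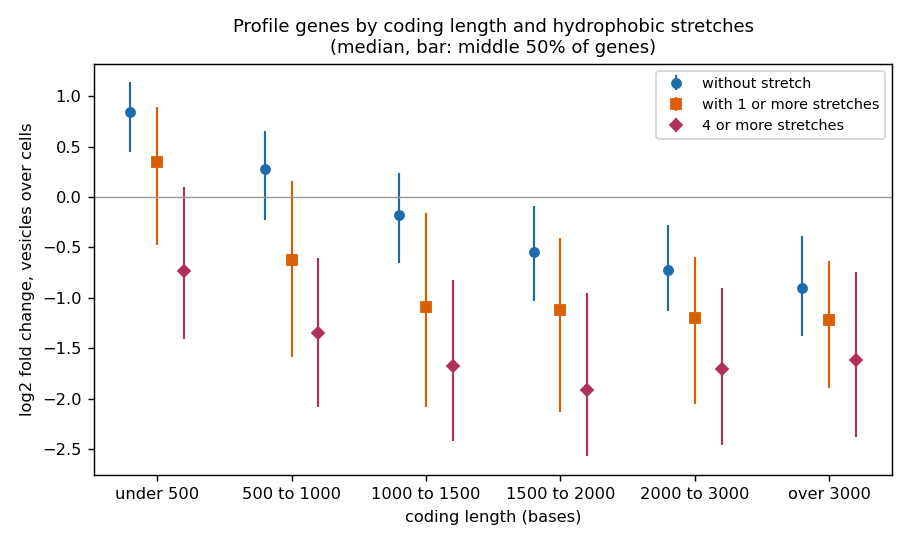
Median log2 fold change of vesicles over cells for profile genes in 6 classes of coding length, split by encoded hydrophobic stretches; bars span the middle 50% of genes, and genes with 4 or more stretches are also part of the group with 1 or more. Medians fall with length in genes without a stretch, from 0.84 to -0.90, and genes with stretches lie lower in each class.

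The difference by hydrophobic stretch was present at every length. In genes of 500 to 1000 coding bases, the median was 0.28 without a stretch, -0.62 with 1 or more and -1.35 with 4 or more. In genes of 1500 to 2000 bases the medians were -0.55, -1.12 and -1.91, and in those over 3000 bases -0.90, -1.22 and -1.62. Mitochondrial proteins with a stretch did not share the fall of secretory ones. Of 20 genes of the respiratory chain and mitochondrial ribosome lists with a stretch and under 1000 coding bases, 11 rose and 0 fell (median 0.66). Of 41 genes of the secretory and surface lists with a stretch and under 1000 coding bases, 3 rose and 27 fell (median -1.50). These sets were not matched in length, with median coding lengths of 442.5 bases (mitochondrial) and 651 bases (secretory and surface). For all profile genes with a stretch, the median was 0.35 under 500 coding bases and -0.62 at 500 to 1000. The part of length in the difference between the sets was not tested. Over all profile genes with a stretch, the share of counts was 30.3% ± 2.41 in cells and 16.4% ± 1.11 in vesicles, and over genes of under 500 coding bases 12.8% ± 0.243 and 24.2% ± 3.93 (SD, n = 5). The direction was the same in 5 of 5 lines for both, with an exact sign-flip permutation p of 0.0625 (two-sided).

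All tested members of the cytosolic ribosomal protein lists rose. The 31 of the small subunit had a median log2 fold change of 1.31 and the 46 of the large subunit 1.35 (1.74 and 1.79 relative to the profile), between 0.91 and 1.93 for single genes. No line left out took away more than 1 of these calls. The median coding lengths were 453 bases (small subunit) and 474 bases (large subunit). Of all profile genes under 500 coding bases 47.6% rose, with a median of 0.77, and the part of length was not tested. RPS19 was at 432 to 1432 CPM in cells and 2003 to 4296 CPM in vesicles, and RPL37 at 333 to 839 and 1010.1 to 2019.9 CPM. Together the ribosomal proteins held 3.50% ± 0.930 of cell counts and 9.70% ± 2.79 of vesicle counts (SD, n = 5). The share went from 3.99 to 14.1% in LS513 and from 2.0 to 7.23% in COLO-201. Reads shared with their many processed pseudogenes may have been assigned differently in the 2 kinds of library, which was not tested. Per kilobase of exonic length, 25 of the 50 most abundant vesicle mRNAs encoded ribosomal proteins, against 14 of the 50 in cells, and 34 genes were in both sets.

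Other genes of the protein synthesis machinery moved less. Of 38 translation factors, 13 rose and 1 fell (median 0.49, or 0.92 relative to the profile). TPT1, a growth-related cytosolic protein listed with them, rose from 936 ± 442 to 3573 ± 2531 CPM, and EEF1D, a subunit of elongation factor 1, from 140 ± 23.3 to 328 ± 45.6 CPM, while the scaffold EIF4G1 was the gene that fell. Without SW480 the rises numbered 6. Of 20 aminoacyl-tRNA synthetases, which charge tRNAs, 9 fell and 0 rose (median -0.62, or -0.18 relative to the profile), but 6, 6, 5 and 6 fell without HT-29, LS513, HCT 116 and SW480. In the proteasome 10 of 33 genes rose and 2 fell (median 0.50, or 0.93 relative to the profile). Those that fell, PSMD1 and PSMD2, encode large base subunits, and PSMA7 and PSMB4 of the catalytic core rose. The proteasome rises depended on the lines, with 6 without COLO-201, 3 without HT-29 and 2 without SW480.

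Splicing genes held rises and falls. Of 51, 10 rose and 13 fell, the falls below their share over the profile, and the median was -0.21, or 0.22 relative to the profile. Those that rose included 8 genes of small nuclear ribonucleoproteins, among them SNRPG, SNRPE and SNRPF, which form the core of the spliceosomal particles. Other proteins of small nuclear ribonucleoproteins were among those that fell, such as PRPF8, from 428 ± 87.9 to 72.6 ± 32.4 CPM, and SNRNP200, from 365 ± 109 to 83.1 ± 30.9 CPM. The sign of the unadjusted median changed with upper-quartile scaling, to 0.36, and with DESeq2's size factors, to 0.0024, while the relative median was positive with each scaling and each line left out. Without SW480 there were 6 rises, and without LS513 or HCT 116 8 falls.

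Rises were frequent in both lists of nuclear genes for mitochondrial proteins, and none was called among mRNAs encoded in the mitochondrion itself. Of 74 nuclear genes for the respiratory chain and ATP synthase, 48 rose and 2 fell, with a median of 0.77 (1.2 relative to the profile). ATP5F1E, a small ATP synthase subunit, rose from 611 ± 239 to 1644 ± 1008 CPM and NDUFB1, a small accessory subunit of complex I, from 133 ± 34.8 to 350 ± 135 CPM. The 2 that fell encode large catalytic or core subunits, SDHA of complex II and NDUFS1 of complex I, with log2 fold changes of -1.17 (SE 0.21) and -0.94 (SE 0.26) and coding lengths of 1992 and 2181 bases. Of 69 mitochondrial ribosomal protein genes, 33 rose and 0 fell (median 0.66, or 1.09 relative to the profile). Both lists are of short genes, with median coding lengths of 423 bases (respiratory chain) and 594 bases (mitochondrial ribosome). Their shares of rises were 64.9% and 47.8%. Of all profile genes under 500 coding bases 47.6% rose, and of those of 500 to 1000 15.7%. The part of length in these rises was not tested. Without SW480 the rises were 27 of the respiratory chain list and 21 of the mitochondrial ribosome.

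Mitochondrially encoded mRNAs divided the lines. In COLO-201, HT-29 and SW480 the median log2 ratios of the 13 mRNAs were -3.90, -5.67 and -3.28. In LS513 and HCT 116 they were -0.10 and -0.14, above the profile medians of these lines (-0.78 and -0.31). MT-CO2, a core subunit of cytochrome oxidase, was at 1332 CPM in COLO-201 cells, 2070 in HT-29, 1253 in LS513, 879 in HCT 116 and 2150 in SW480, and in vesicles at 50.4, 18.6, 549, 496 and 141 CPM. As a share of all counts, the 13 mRNAs went from 0.832 to 0.0460% in COLO-201, from 1.12 to 0.0184% in HT-29 and from 1.41 to 0.109% in SW480. The share hardly moved in LS513, from 0.637 to 0.609%, or in HCT 116, from 0.525 to 0.478%. LS513 and HCT 116 also had the highest estimated background and the lowest total counts among the 5 vesicle libraries, and the part of these in the result was not tested.

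**Figure D4:**
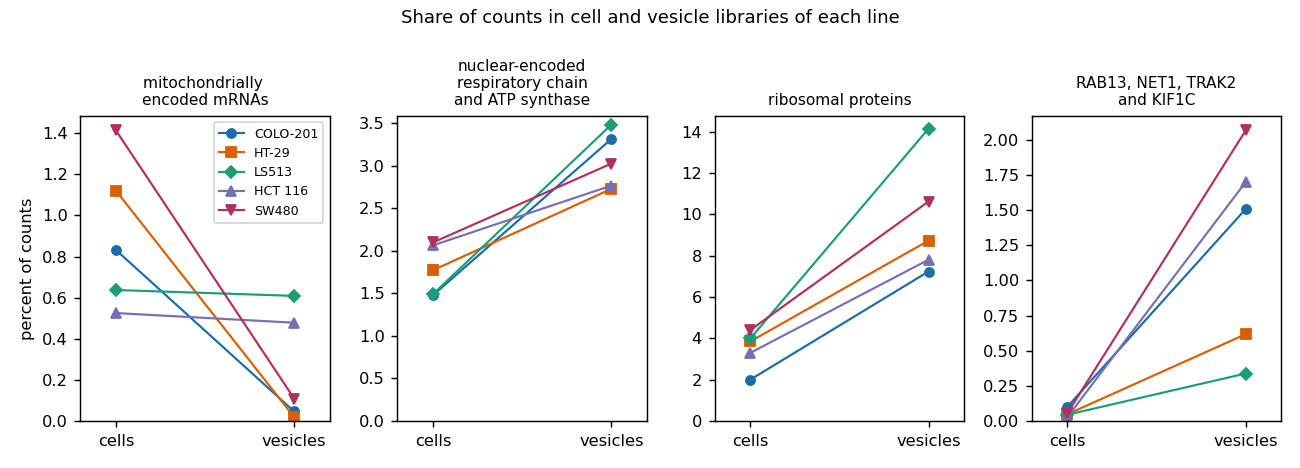
Percent of all counts in the cell and vesicle library of each line (lines join the 2 libraries of a line) for 4 gene sets; each panel starts at 0. The mitochondrially encoded mRNAs fall near 0 in COLO-201, HT-29 and SW480 and stay at 0.609 and 0.478% in LS513 and HCT 116, while the other 3 sets rise in each line.

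In the fit over all lines 6 of the 13 mitochondrially encoded mRNAs fell and 0 rose, with a median of -2.60. The count rested on single lines: it was 0 without COLO-201 or SW480, 3 without HT-29, 12 without LS513 and 10 without HCT 116. MT-CO2 and MT-CYB, with log2 fold changes of -3.47 (SE 0.95) and -3.45 (SE 0.95) and edgeR adjusted p of 0.0218 and 0.0223, lost their calls without COLO-201 (0.0792 and 0.0813) or SW480 (0.0657 and 0.0682). With upper-quartile scaling the count was also 0, with log2 medians of -2.40 for DESeq2's size factors and -2.08 for the upper quartile.

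Cytoskeletal lists held rises and falls. Of 40 actin cytoskeleton genes 6 rose, among them the small actin-binding proteins TMSB10, TMSB4X and PFN1, and 7 fell, among them the large cross-linker FLNA and VCL, which anchors actin at adhesions. VCL went from 249 ± 108 to 41.4 ± 7.52 CPM, and in its case the groups did not overlap. Of 37 kinesins and dynein subunits 4 rose, KIF1C and the dynein light chains DYNLL1, DYNLT1 and DYNLRB1, and 10 fell, among them the mitotic kinesin KIF11 and the dynein heavy chain DYNC1H1. The shares of motor genes called, 10.8% higher and 27.0% lower, were near those of the profile. The medians of the actin and motor lists were -0.02 and -0.26, or 0.41 and 0.18 relative to the profile. Both unadjusted medians were positive with upper-quartile scaling, and that of the actin list also with DESeq2's size factors (0.20) and library size alone (0.09). Fewer of these rises were called without COLO-201 or SW480 (2 of the actin list for each, and 3 and 2 of the motor list), and 3 of the actin list without LS513. The falls among motor genes numbered 5 without COLO-201 and 6 without LS513 or SW480.

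With TMM scaling no rise was called over the 5 lines in the lists of DNA replication and mitosis, of chromatin regulators or of immediate early genes. Of 46 genes of DNA replication and mitosis, 13 fell, and of 28 zinc finger and chromatin regulators 14 fell and 0 rose. The chromatin regulators are long genes, with a median coding length of 5835 bases. Their share of falls was near that of all profile genes over 3000 coding bases, of which 51.1% fell and 1.50% rose. MKI67, a protein that coats mitotic chromosomes, went from 234 ± 75.2 to 48.8 ± 42.2 CPM, with HT-29 vesicles, at 123 CPM, above LS513 cells, at 116 CPM. The histone methyltransferases SETD2 and NSD1 had log2 fold changes of -1.88 and -1.43 without overlap. In 4 of 5 replication-dependent histone genes, whose mRNAs mostly lack a poly(A) tail, the level rose (median 0.97), but 1 call was left without HT-29, LS513 or SW480 and 2 without COLO-201. The median coding length of these histone genes was 390 bases, and 47.6% of all profile genes under 500 coding bases rose. Of 29 immediate early and stress genes 7 fell and 0 rose. The lines differed in direction: relative to the profile, the median of this list ran from -1.17 in LS513 to 1.06 in COLO-201. That of the replication list ran from -1.49 in COLO-201 to 0.55 in HT-29. The shares that fell, 28.3% of the replication genes and 24.1% of the immediate early genes, were near or below that of the profile. Without COLO-201, 13 of the immediate early genes fell, and without LS513 or SW480 4. The falls among the replication genes numbered 7 without COLO-201 or HCT 116, 6 without LS513, 8 without SW480 and 17 without HT-29. In this list 2 genes rose without COLO-201, where the relative median was 0.16 in place of -0.16, and 1 rose without LS513. Falls among the chromatin regulators ran from 9 without SW480 to 13 without HCT 116, and 1 gene rose without LS513. Of 30 genes of sterol and fatty acid synthesis, many of them membrane enzymes, 19 fell and 0 rose (median -1.33, or -0.89 relative to the profile), with SCD, a fatty acid desaturase, going from 809 ± 439 to 63.8 ± 34.7 CPM. Cytosolic chaperones (1 rise and 1 fall of 23), glycolysis enzymes (1 and 2 of 18) and the colorectal epithelium markers (1 and 4 of 20) were near or below the background of calls.

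Vesicle libraries resembled the cells of their own line more than those of the other 4. Over the profile, Spearman's rho between a vesicle library and its own cells was 0.718 in COLO-201, 0.815 in HT-29, 0.705 in LS513, 0.774 in HCT 116 and 0.823 in SW480. With the cells of other lines it was at most 0.688. After the mean of each compartment was subtracted, the correlation of deviations was 0.606 to 0.788 with the own line and at most 0.0951 with any other. The log2 ratios of vesicle to cell level also correlated between lines, with Spearman's rho from 0.510 to 0.678 over the 10 pairs of lines. These correlations are across genes, between libraries that differ in depth and, for vesicles against cells, in kit, and no p-value is attached.

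**Figure D5:**
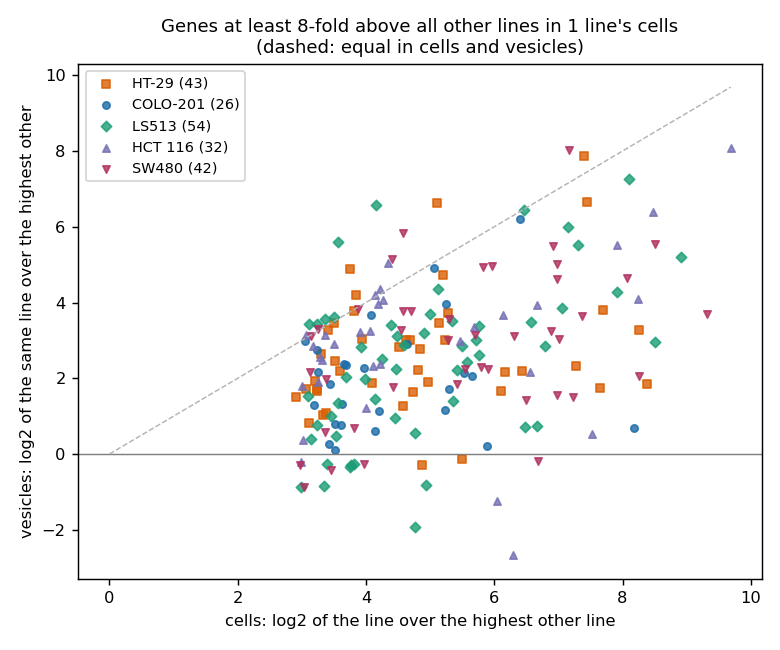
For 197 genes at least 8-fold higher in 1 line's cells than in any other's, the log2 ratio of that line to the highest other line in cells (x axis) and in vesicles (y axis), with 0.5 CPM added. Most points lie above 0, which means that the same line's vesicles were highest, and most lie below the dashed line of equal ratios.

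Line-specific transcripts were mostly highest in the vesicles of the same line. Of 197 profile genes whose level in 1 line's cells was at least 8 times that of each other line, 179 (90.9%) were highest in the vesicles of the same line. The number was 26 of 26 in COLO-201, 41 of 43 in HT-29, 46 of 54 in LS513, 29 of 32 in HCT 116 and 37 of 42 in SW480. The median log2 ratio to the highest other line was 4.59 in cells and 2.55 in vesicles. The genes were chosen for a large ratio in cells, so the difference between these medians is a description. SPINK4, a goblet cell peptide specific to LS513, was at 409 CPM in its cells and 685 CPM in its vesicles, and at most 3.97 CPM in the vesicles of the other lines. GTSF1, a germ line factor specific to HCT 116, was at 411 and 369 CPM, with at most 0.856 CPM in other vesicles. Both stayed near or above their cell level. STYXL2, a pseudophosphatase specific to COLO-201, was at 856 CPM in its cells and 14.3 CPM in its vesicles, against 8.67 CPM in LS513 vesicles. The glucose transporter SLC2A3, specific to SW480, went from 1495 to 188 CPM, and the axon guidance receptor ROBO1 from 238 to 19.8 CPM.

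The 5 lines were set against the other 5 lines of the series by the interaction of compartment and set of lines. The estimated background was 19.2 to 50.4% in the vesicle libraries of the other 5. The vesicle to cell ratio was higher in the lower-background lines for 1052 of 9628 genes (10.9%) and lower for 122 (1.27%), by edgeR's quasi-likelihood test over 20 libraries. These calls were fragile. With edgeR no gene was called without the line block, with DESeq2's size factors, with upper-quartile scaling, or without COLO-201, HT-29, HCT 116 or SW480, although in these fits 1942 to 2644 genes were higher and 439 to 1074 lower at an unadjusted p under 0.05. With library size alone, 13 were higher and 261 lower, and with the silent-gene background subtracted 22 and 1. The 8 named genes past the threshold had adjusted p of 0.0374 to 0.0428. PSMA7, MRPL20 and MRPL21 had higher ratios in the lower-background lines, as had TPT1, HSPE1 and HSPA9, and IGF2R and P4HA2, both of which encode proteins of the secretory pathway, had lower ones. Since the lines were divided by a measure of their vesicle libraries, and WiDr in the other set is a known derivative of HT-29, these values are a description.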

How the data were processed

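The authors deposited raw counts of reads per protein-coding gene symbol, 1 column per library, and no normalisation of them is recorded. Per the submitters' processing notes, alignment and counting involved STAR and featureCounts with the build hg19. Versions, annotation, strand setting and the treatment of reads that match several genes are not given in the sources used here, so counts of ribosomal protein genes, of other genes with near-identical copies and of overlapping genes are uncertain to that extent. All 20 count columns matched 1 library each.

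Vesicles were compared with cells by edgeR 4.0.16 (glmQLFit with robust fit, glmQLFTest) in R 4.3.3, with TMM scaling, filterByExpr and cell line as a block, on the 10 libraries. Benjamini-Hochberg adjustment ran over the 14793 genes tested, with a threshold of 0.05. A further 11 profile genes did not pass the filter on low counts, and 264 lay under its limit of 0.407 CPM in 1 or more vesicle libraries. Log2 ratios of single lines have 0.5 CPM added. Shares of counts were tested by exact sign-flip permutation over the 5 lines. The test was also run on simulated counts. These were drawn without differences between lines, unlike the data, so no conclusion is drawn from them. The line-specific counts compare levels, with no test. Library pairs of a compartment differed far beyond sampling noise (chi-square per degree of freedom of at least 128).

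The vesicle and cell libraries of 1 line are paired because the labels name the same cell line for both. Their deviations from the compartment means correlated at 0.606 to 0.788.

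Transcript features came from 1 representative coding transcript per gene of GENCODE 29 (GRCh38), matched by symbol for 98.3% of the genes, and the coordinates printed are those of that build. The 13 mitochondrially encoded genes were translated with the mitochondrial code. Features of 7 kinds were looked at. They, the purine run definitions, the count under the filter limit, the share sets, the 50 most abundant mRNAs, the chaperone comparison and the set of rises with at least 10 CPM in every cell library were chosen after the values were seen. The lines, the 31 gene lists and the rules were chosen with earlier results of these data known. Named genes are the 15 largest rises and 15 largest falls past the threshold with 1 direction in all 5 lines, the 2 members of each list with the smallest adjusted p, CD9, CD63 and CD81, the protrusion list, and 3 line-specific genes per line. Alternatives were no line block, 3 other scalings, DESeq2 1.42.0, no filter, each line left out, equal depth, subtracted background and other profile limits. Some of the named genes are not reported here.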

Additional observations from a re-analysis of the deposited data

Results flagged for a closer look

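In 7 of 159 values looked at over the 5 lines, 1 line stood apart from the other 4 by more than a gap test for 5 values allows, and chance alone gives about 1 in 20. All are log2 ratios of vesicle to cell level. COLO-201 stood apart in 4 genes: RPS12 at 2.91 (other lines 1.51 to 1.91), FTL at 3.62 (1.19 to 1.89), RPS15 at 1.80 (1.25 to 1.40) and HSPA8 at -1.68 (0.17 to 0.87). HT-29 stood apart in MAN1A1, a Golgi mannosidase, at -2.84 (-4.08 to -3.75), HCT 116 in SNRNP200 at -1.32 (-2.52 to -2.19) and LS513 in PSMA7 at 0.55 (0.97 to 1.09).

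For 8 of 122 named genes the vesicle to cell ratio differed between the 5 lower-background lines and the other 5, by the interaction term of edgeR's quasi-likelihood fit. Over the profile 10.9% of genes were called higher and 1.27% lower, so 8 of 122 is not above the general share. The lines were divided by a measure of the same vesicle libraries, so these values are a description. The log2 differences (lower-background minus higher-background lines) were 1.90 for MRPL21, 1.64 for MRPL20, 1.88 for HSPE1, 1.87 for TPT1, 1.55 for PSMA7, 1.68 for HSPA9, -1.91 for IGF2R and -1.53 for P4HA2, with adjusted p of 0.0374 to 0.0428. These calls were lost without the line block, with DESeq2's size factors or upper-quartile scaling, and without COLO-201, HT-29, HCT 116 or SW480.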

How the results depend on the processing

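Counts of calls in the profile moved with the settings. The rises, 864 as reported, were 349 with no line block, 1379 with DESeq2's size factors, 2281 with upper-quartile scaling, 1769 with DESeq2, 1384 at equal depth, 564 at a profile limit of 50 CPM, and between 500 (without SW480) and 844 (without HCT 116) when 1 line was left out. The falls, 2797 as reported, were 1656 with no line block, 1469 with upper-quartile scaling, 1847 at 50 CPM, and between 2040 and 2481 when 1 line was left out. Fits without the line block ignore that the libraries are paired by line. Of the 27 list medians relative to the profile, 4 near 0 changed sign in some setting (DNA replication and mitosis, aminoacyl-tRNA synthetases, colorectal epithelium and glycolysis). In 5 cases a median moved by more than the spread between lines: with background subtracted they were 1.30 for mitochondrial ribosomal proteins, 1.14 for translation factors, 1.14 for the proteasome and 0.36 for splicing, and at 50 CPM 0.38 for splicing. The interaction calls, 1052 higher and 122 lower as reported, were 0 and 0 with no line block, with DESeq2's size factors and with upper-quartile scaling, 13 and 261 with library size alone, and 22 and 1 with background subtracted. With 1 line left out they were 0 to 914 and 0 to 100. The share of line-specific genes that were highest in the same line's vesicles was 84.8 to 95.3% with 1 line left out. GABRP, a line-specific gene of HT-29, had a log2 fold change of -1.36 in place of 4.68 with no line block. Its level was 163 CPM in HT-29 cells and 52.9 CPM in HT-29 vesicles. In the other lines it was at most 0.0308 CPM in cells and 4.99 CPM in vesicles. The causes of these changes were not tested. Vesicle depth, lowest in HCT 116 at 4.62 M counts, limits what is seen of low genes there.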
